A study of Mus musculus with 6 samples.

Results

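The genes described here are 10 components of the bone morphogenetic protein (BMP) and transforming growth factor beta (TGF-beta) pathways: the BMP ligands *Bmp2*, *Bmp4* and *Bmp7*, the TGF-beta ligands *Tgfb1* and *Tgfb2*, the responders *Id1*, *Id2* and *Id3*, and the inhibitory SMADs *Smad6* and *Smad7*. They were listed by name with no cutoff on a measured value, although earlier results of these data were known when the list was drawn up, and they were matched to the deposited Ensembl IDs through the GENCODE mouse annotation. All 10 were among the 47643 gene IDs in the files, and all 10 were among the 15792 genes that had at least 1 count in at least 2 libraries and were tested.

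The libraries came from mouse submandibular salivary gland organoids (mSGOs), which are multicellular structures that grow in a Matrigel gel from dissociated adult gland cells. The donors were female C57BL/6 mice aged 8-12 weeks, and their organoids were untreated and non-irradiated. mSGOs of 3 mice were collected after 5 days and again after 7 days of culture, giving 6 libraries, 3 per day, and libraries with the same number came from the same mouse. By the methods of the study, gland cells first spent 3 days in minimal medium, DMEM/F12 with EGF, FGF2, N2, insulin and dexamethasone. The resulting spheres were dissociated and plated in Matrigel. From there both days shared WRY medium, which is minimal medium with the ROCK inhibitor Y27632 and medium conditioned with R-spondin1 and Wnt3a. The medium recipe lists no BMP or TGF-beta ligand and no inhibitor of either pathway. What the Matrigel held, and what the conditioned media carried besides Wnt3a and R-spondin1, was not measured, so ligand from these sources remains possible.

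BMP and TGF-beta ligands are secreted dimers that bring type I and type II serine/threonine kinase receptors together, after which BMP receptors phosphorylate SMAD1, SMAD5 and SMAD9 and TGF-beta or activin receptors phosphorylate SMAD2 and SMAD3. These SMADs enter the nucleus with SMAD4 and switch on target genes. *Id1*, *Id2* and *Id3* are classical BMP targets whose proteins bind basic helix-loop-helix (bHLH) factors and keep them from DNA, and *Smad6* and *Smad7* encode feedback inhibitors induced by the pathway itself. In developing salivary glands these signals take part in branching and duct formation, and in epithelial cells TGF-beta is known for slowing proliferation and for inducing matrix genes.

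Sequencing read only the 3′ end of each polyadenylated transcript, so a count is not divided by transcript length, and levels are given as CPM, counts scaled by edgeR to a common library size with its TMM method and multiplied by 1e+06. Libraries held 1918198 to 2837397 counts in genes, so that 3 counts, the most that a count of 0 allows, equalled 1.04 to 1.51 CPM. The replicate spread was larger at day 7 (biological coefficient of variation 0.293) than at day 5 (0.0903). On the second principal component, which held 24.0% of the variance, the day 7 library of mouse 3 lay at -38.2 and those of mice 1 and 2 at 28.1 and 16.2. Calls or directions that changed without this library are given for *Id1*, *Smad7*, *Bmp7*, *Gdf15* and *Acvrl1* where these are described. The log2 fold changes of *Inhba*, *Bmpr2*, *Smad5* and *Bmp8a*, none of them called, also changed sign without it (-0.16, -0.039, -0.13 and 0.073). Among the gene lists below, calls then went from 6 to 8 for secreted antagonists and from 6 to 8 for TGF-beta targets. For bHLH partners of ID proteins they went from 0 to 1. Reads counted under entries that name no gene made up 13.7% to 14.4% of day 5 libraries and 9.12% to 9.74% of day 7 libraries. They were not split by reason, and their part in the results was not tested.

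To ask how ligands and responders changed between day 5 and day 7, the days were compared with the edgeR quasi-likelihood test across all genes. Calls followed the thresholds of the study, which are 0.05 for the adjusted p and 0.6 for the log2 fold change in either direction. Of the 10 genes, 5 rose from day 5 to day 7 (*Tgfb1*, *Tgfb2*, *Id2*, *Id3* and *Smad6*), 0 fell and 5 did not pass (*Bmp2*, *Bmp4*, *Bmp7*, *Id1* and *Smad7*). Across all genes tested, 12.0% were called, 7.22% rose and 4.82% fell, and 10.1% rose among the 8172 genes that averaged 10 CPM or more. With scaling by library totals only, the split over all genes moved from 1140 higher and 761 lower to 950 higher and 1008 lower, and 4 of the 10 genes rose. Both TGF-beta ligands rose and 0 of the 3 BMP ligands were called, a difference between ligand groups that was not tested. In 5 of the 10 genes (*Tgfb1*, *Tgfb2*, *Id1*, *Id2* and *Smad6*) every day 7 library lay above every day 5 library, against 15.4% of all genes, and 30.9% of all genes had no overlap in either direction. *Id3* makes it 6 genes that were higher at day 7 in each of the 3 mice, against 22.1% of all genes. With the mouse as a block the same 5 genes were called, against 14.8% of all genes called and 8.37% higher. The median fitted log2 fold change was 0.71 over the 10 genes and -0.01 over all genes tested. Without 1 library the count of calls among the 10 genes was 2, 2 and 3 when day 5 mouse 1, 2 or 3 was left out, and 5, 4 and 7 when day 7 mouse 1, 2 or 3 was left out.

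**Figure D1:**
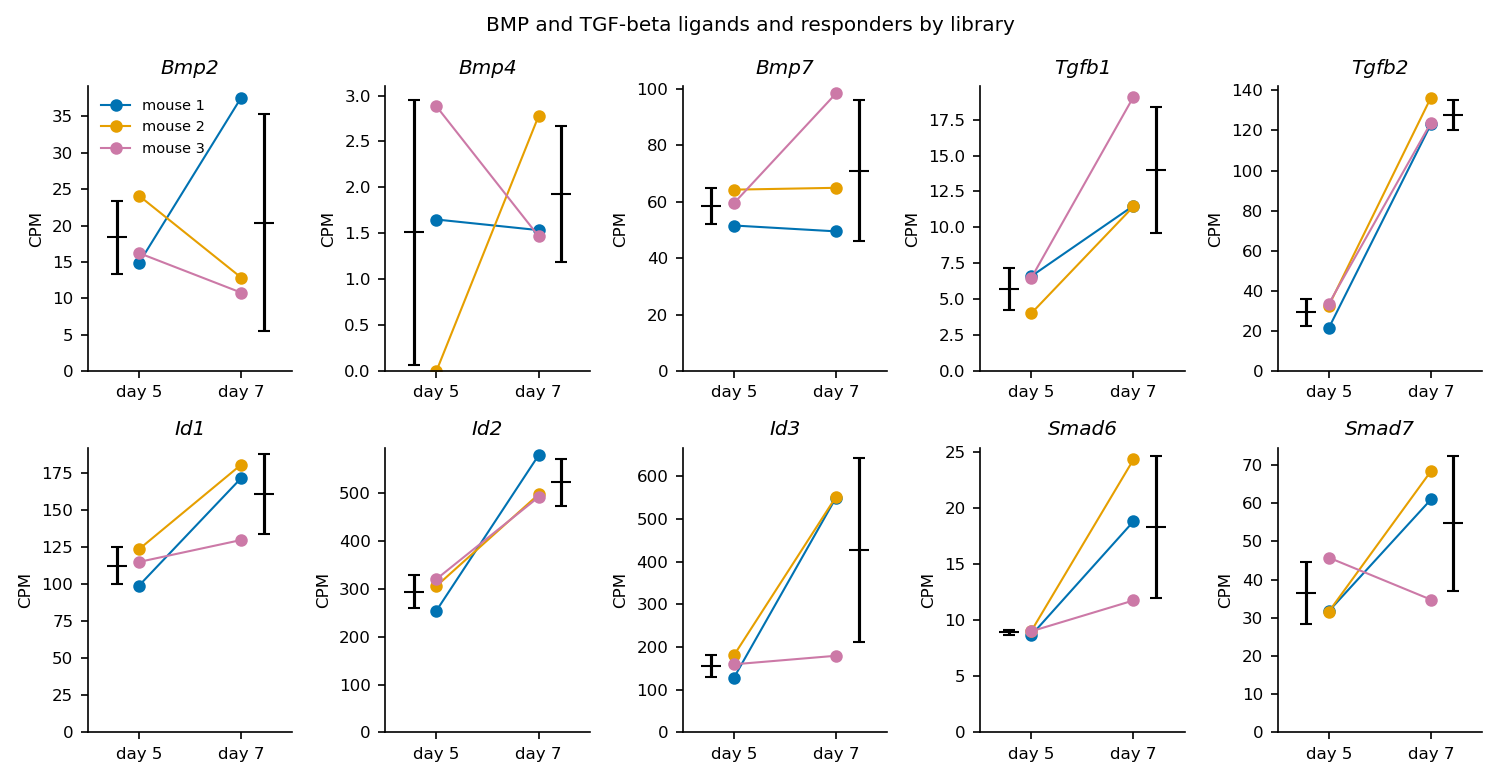
CPM (linear axis from 0, with its own scale for each gene) of the 10 genes at day 5 and day 7, with 1 point per library, 1 line per mouse and the mean ± SD of each day (n = 3) in black beside the points. The *Tgfb2* lines rise together in the 3 mice, whereas the *Id3* lines of mice 1 and 2 climb to 550 and 552 CPM and that of mouse 3 ends at 180 CPM.

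*Tgfb2* had the largest fold change of the 10 genes. It encodes a TGF-beta isoform secreted in a latent complex by many epithelia, and lies at chr1:186354985-186438294 on the minus strand of GRCm39. Its level was 21.4, 32.6 and 33.5 CPM at day 5 in mice 1, 2 and 3, and 123, 136 and 124 CPM at day 7. The days were far apart, and the 3 day 7 libraries lay close together. Mean CPM rose from 29.2 ± 6.72 (SD, n = 3) to 128 ± 7.48, and the log2 fold change was 2.13 ± 0.22 (SE; edgeR adjusted p = 5.59e-06). Within mice the rise was 5.74-fold, 4.18-fold and 3.70-fold. *Tgfb2* was called under all 20 other settings tried, which included leaving out each library in turn.

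*Tgfb1* encodes the isoform best known from immune and wound settings and lies at chr7:25386390-25404506 on the plus strand. It was a low-count gene, with 16, 8 and 18 counts in the day 5 libraries and 30, 33 and 39 counts in the day 7 libraries, or 6.60, 4.02 and 6.49 CPM against 11.5, 11.5 and 19.1 CPM. All day 7 libraries lay above all day 5 libraries, and mouse 3 was highest at day 7. Mean CPM rose from 5.70 ± 1.46 (SD, n = 3) to 14.0 ± 4.39, and the log2 fold change was 1.25 ± 0.35 (SE; edgeR adjusted p = 0.0245). This call was lost without day 5 replicate 1, 2 or 3 (edgeR adjusted p = 0.0774, 0.144 and 0.0874) and when the test asked for a fold change beyond the threshold itself (glmTreat of edgeR, adjusted p = 0.156).

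The third isoform, *Tgfb3*, is not among the 10 genes but shares receptors with *Tgfb1* and *Tgfb2*, and it allowed the isoforms to be set against each other within each library, where scaling cancels. *Tgfb3* was 18.9 ± 1.05 CPM at day 5 and 16.7 ± 1.35 CPM at day 7 (SD, n = 3), with a log2 fold change of -0.17 that was not called (edgeR adjusted p = 0.736). The count of *Tgfb2* was 1.21, 1.71 and 1.69 times that of *Tgfb3* at day 5 in mice 1, 2 and 3, and 6.98, 7.86 and 8.16 times at day 7. *Tgfb2* thus went from 46.8% to 58.6% of the counts of the 3 isoforms at day 5 to between 78.3% and 82.6% at day 7. The closest libraries of the days were mouse 2 at day 5, with 58.6% (95% Wilson interval 49.3% to 67.3%, counting error only), and mouse 3 at day 7, with 78.3% (73.5% to 82.5%). *Tgfb3* went from 33.1% to 38.7% of the counts at day 5 to between 9.60% and 11.6% at day 7, while *Tgfb1* held 7.21% to 14.4% at day 5 and 6.93% to 12.1% at day 7. These shares are descriptions, since with 3 libraries against 3 a permutation test of a share cannot reach the threshold.

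**Figure D2:**
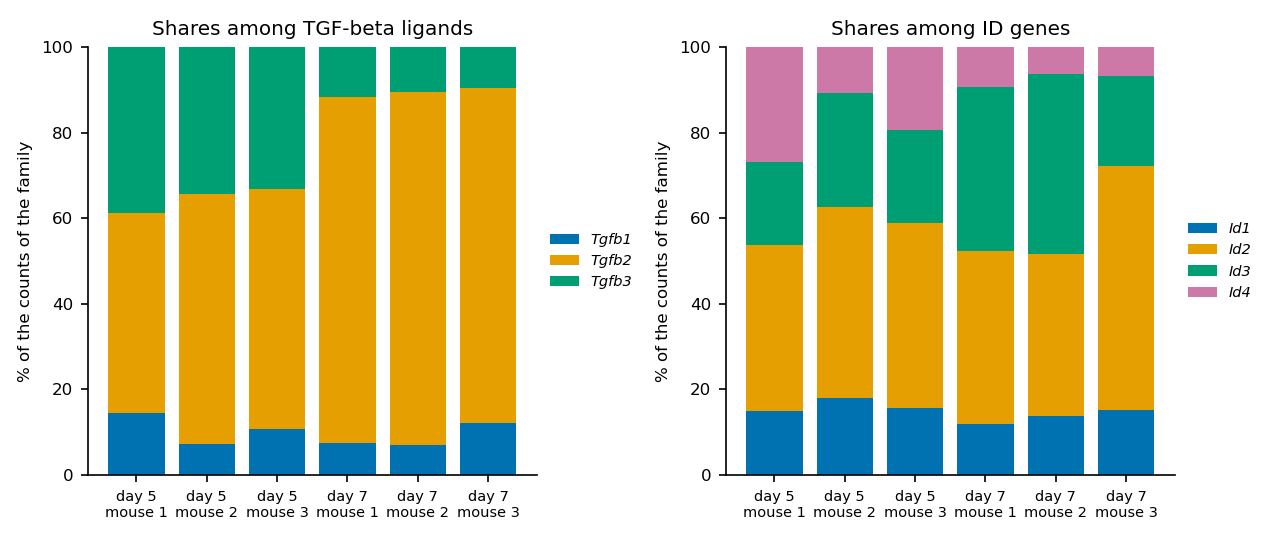
Share in percent of the counts of the 3 TGF-beta isoforms (left) and of the 4 ID genes (right) held by each gene, as stacked bars with 1 bar per library. *Tgfb2* takes 78.3% to 82.6% of the TGF-beta isoform counts in the day 7 libraries, and *Id3* takes 38.3% and 42.0% of the ID counts in mice 1 and 2 at day 7 but 20.9% in mouse 3.

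None of the BMP ligands was called. *Bmp7*, which encodes a ligand known for epithelial branching in kidney and glands, lies at chr2:172709805-172782410 on the minus strand and was the ligand with the highest level at day 5. It was 51.6, 64.3 and 59.4 CPM at day 5 and 49.5, 64.9 and 98.4 CPM at day 7. Mice 1 and 2 stayed near their day 5 values and mouse 3 was 1.66-fold higher, so the days overlapped. The log2 fold change was 0.27 ± 0.24 (SE), which was not called (edgeR adjusted p = 0.502), and it was -0.026 without the day 7 library of mouse 3.

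*Bmp2*, a ligand known for bone formation and for epithelial differentiation, lies at chr2:133394079-133404816 on the plus strand. Its level was 14.8, 24.1 and 16.2 CPM at day 5 and 37.6, 12.8 and 10.8 CPM at day 7. The mice went apart: mouse 1 was 2.53-fold higher at day 7, and mice 2 and 3 were at 0.533 and 0.664 of their day 5 level. The log2 fold change was 0.17 ± 0.38 (SE), which was not called (edgeR adjusted p = 0.826), and it was -0.61 without the day 7 library of mouse 1. The count of *Bmp7* was 2.67 to 3.67 times that of *Bmp2* at day 5, and 1.32, 5.05 and 9.14 times at day 7 in mice 1, 2 and 3.

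*Bmp4*, a ligand that is often made by mesenchyme next to epithelial buds, lies at chr14:46620250-46636745 on the minus strand and was at the limit of detection. The libraries held 4, 0 and 8 counts at day 5 and 4, 8 and 3 counts at day 7, or 1.51 ± 1.45 against 1.93 ± 0.737 CPM (SD, n = 3). A change was not detectable at this depth. The files also list *Gm15222*, a predicted gene on the opposite strand that overlaps a *Bmp4* exon, with 5 counts over the 6 libraries, and whether counting used the strand is not given in the sources used here.

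Among the responders, the 3 *Id* genes had the highest mean levels of the 10 genes at both days. *Id2*, at chr12:25143798-25147282 on the minus strand, was 254, 306 and 320 CPM at day 5 and 579, 497 and 491 CPM at day 7. All day 7 libraries lay above all day 5 libraries. Mean CPM rose from 294 ± 34.6 (SD, n = 3) to 522 ± 48.9, and the log2 fold change was 0.83 ± 0.19 (SE; edgeR adjusted p = 0.00611). The call was lost with glmTreat of edgeR (adjusted p = 0.309) and without day 5 replicate 1 or 2 (edgeR adjusted p = 0.0783 and 0.0534).

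*Id3*, at chr4:135870808-135873066 on the plus strand, was 128, 181 and 160 CPM at day 5 and 550, 552 and 180 CPM at day 7. Mice 1 and 2 rose 4.29-fold and 3.06-fold, whereas mouse 3 was 1.13-fold higher, and its day 7 level lay just under the day 5 level of mouse 2. Mean CPM rose from 156 ± 26.4 (SD, n = 3) to 427 ± 215, and the log2 fold change was 1.45 ± 0.31 (SE; edgeR adjusted p = 0.00399). The call was lost with the robust option of edgeR (adjusted p = 0.0789), and the log2 fold change was 1.23 to 1.82 when 1 library was left out.

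*Id1*, at chr2:152566218-152579544 on the plus strand, was 99.0, 124 and 115 CPM at day 5 and 171, 181 and 130 CPM at day 7. The days did not overlap, but mouse 3 lay close to the day 5 range. The mean was 112 ± 12.4 CPM at day 5 and 161 ± 27.1 CPM at day 7 (SD, n = 3), and the log2 fold change of 0.52 ± 0.20 (SE) was not called (edgeR adjusted p = 0.0986). Without the day 7 library of mouse 3 it was 0.65 and was called (edgeR adjusted p = 0.00548).

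The *Id* genes also shifted against each other. The *Id3* count was 1.30, 1.46 and 1.39 times the *Id1* count at day 5, and 3.21 and 3.06 times in mice 1 and 2 at day 7. In mouse 3 at day 7 it was 1.38 times, within the day 5 range. *Id4*, the fourth family member and not among the 10 genes, went from 10.9% to 26.9% of the ID counts at day 5 to between 6.42% and 9.40% at day 7, and its own log2 fold change of -0.51 was not called (edgeR adjusted p = 0.292).

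Of the inhibitory SMADs, *Smad6*, which acts mainly on BMP receptors, lies at chr9:63860341-63929793 on the minus strand. It was 8.66, 9.04 and 9.01 CPM at day 5 and 18.8, 24.3 and 11.7 CPM at day 7. The day 5 libraries were nearly equal, and all day 7 libraries lay above them, mouse 3 the least. Mean CPM rose from 8.90 ± 0.209 (SD, n = 3) to 18.3 ± 6.29, and the log2 fold change was 1.05 ± 0.31 (SE; edgeR adjusted p = 0.0351). This call was lost with scaling by library totals only (edgeR adjusted p = 0.0562), with DESeq2 (0.0711), with limma voom (0.0683), with glmTreat of edgeR (0.257), without day 5 replicate 1, 2 or 3 (0.139, 0.135 and 0.140) and without day 7 replicate 2 (0.189).

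*Smad7*, an inhibitor of TGF-beta and BMP receptors alike, was 31.8, 31.6 and 45.8 CPM at day 5 and 61.0, 68.4 and 34.8 CPM at day 7. Mice 1 and 2 were 1.92-fold and 2.16-fold higher at day 7, and mouse 3 was at 0.760 of its day 5 level, so the days overlapped. The log2 fold change of 0.59 ± 0.26 (SE) was not called (edgeR adjusted p = 0.153). Without the day 7 library of mouse 3 it was 0.82 and was called (edgeR adjusted p = 0.00708). *Smad6* counts were 0.197 to 0.286 of the *Smad7* counts at day 5 and 0.308 to 0.355 at day 7.

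**Figure D3:**
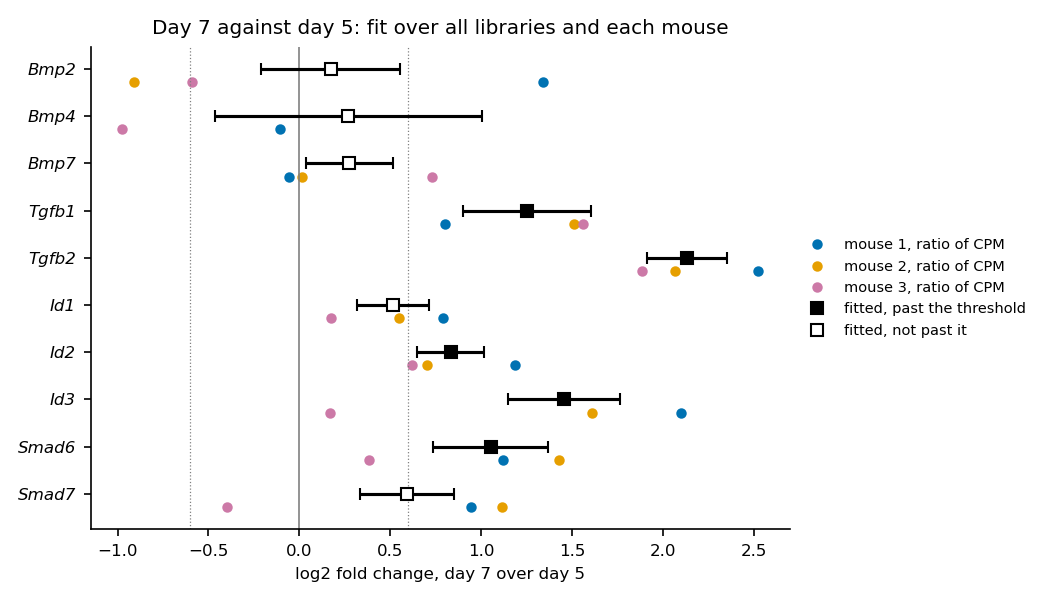
Fitted log2 fold change, day 7 over day 5, of the 10 genes with its SE as bars, and the log2 ratio of CPM in each mouse as points; filled squares are called, dotted lines mark the minimum fold change of 0.6 in either direction, and *Bmp4* has no point for mouse 2, whose day 5 count was 0. *Tgfb2* is farthest to the right at 2.13 ± 0.22, and the points of *Id3*, *Smad7* and *Bmp2* are spread between mice.

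Promoter sequences of the *Id* genes and of *Smad6* are shown because these genes are direct SMAD targets in other systems. RefSeq promoter windows (build GRCm38.p6, 250 bases before to 50 bases after the annotated start) matched *Bmp4*, *Id2*, *Id3*, *Smad6*, *Tgfb1* and *Tgfb2*, and *Bmp2*, *Bmp7*, *Id1* and *Smad7* were not matched. Each window was searched on both strands for GGCGCC, the GC-rich core bound by BMP SMADs, for GTCTAGAC, the palindrome of paired SMAD boxes, and for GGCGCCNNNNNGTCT, in which a GC-rich core and a SMAD box are joined by a spacer. The windows of *Id2*, *Smad6* and *Id3* follow, with matches in capitals.
*Id2* (chr12:25096043-25096342, minus strand): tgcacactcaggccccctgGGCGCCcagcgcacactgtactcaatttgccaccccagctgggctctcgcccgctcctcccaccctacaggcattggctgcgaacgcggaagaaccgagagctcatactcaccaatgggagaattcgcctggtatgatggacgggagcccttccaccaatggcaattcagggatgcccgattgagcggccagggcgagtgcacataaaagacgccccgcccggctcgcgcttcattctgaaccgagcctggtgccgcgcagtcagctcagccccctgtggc
*Smad6* (chr9:64022010-64022309, minus strand): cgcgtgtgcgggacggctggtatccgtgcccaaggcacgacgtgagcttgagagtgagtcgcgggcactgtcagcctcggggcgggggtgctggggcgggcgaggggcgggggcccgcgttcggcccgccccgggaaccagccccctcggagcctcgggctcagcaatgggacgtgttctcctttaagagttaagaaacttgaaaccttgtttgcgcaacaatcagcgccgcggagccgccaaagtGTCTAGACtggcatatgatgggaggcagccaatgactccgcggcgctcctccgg
*Id3* (chr4:136143572-136143871, plus strand): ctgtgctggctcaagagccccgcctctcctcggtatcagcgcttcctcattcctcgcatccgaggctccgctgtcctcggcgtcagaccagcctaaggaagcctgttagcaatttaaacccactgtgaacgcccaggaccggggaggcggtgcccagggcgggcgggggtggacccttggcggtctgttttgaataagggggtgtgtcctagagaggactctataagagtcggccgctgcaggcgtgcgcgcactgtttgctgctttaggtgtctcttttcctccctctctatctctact
The *Id2* window held GGCGCC, whose first base lies 231 bases before the start, and 11.9% of all 32851 windows held this motif. The *Smad6* window held GTCTAGAC from 4 bases before the start, against 0.213% of all windows. The joined motif was in 0 of the 6 matched windows and in 0.0731% of all windows, and the *Id3* window held 0 of the 3 motifs. The matches do not overlap each other and are descriptions of these letters, not of binding.

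The order of levels changed between the days. At day 5 the mean CPM fell in the order *Id2*, *Id3*, *Id1*, *Bmp7*, *Smad7*, *Tgfb2*, *Bmp2*, *Smad6*, *Tgfb1* and *Bmp4*, and the ranges of neighbours overlapped only between *Smad7* and *Tgfb2* and between *Tgfb2* and *Bmp2*. At day 7 *Tgfb2* stood above *Bmp7* in every library, next to *Id1*, whose range it overlapped. Neighbours at day 7 overlapped except *Tgfb2* with *Bmp7* and *Tgfb1* with *Bmp4*.

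The responders were lower in mouse 3 than in mice 1 and 2 at day 7, whereas the TGF-beta ligands were not. Of the 10 genes, 8 averaged 10 CPM or more, and 6 of these had their lowest day 7 level in mouse 3 (*Bmp2*, *Id1*, *Id2*, *Id3*, *Smad6* and *Smad7*), against 39.1% of the 8172 genes at that level. *Id3* in mice 1 and 2 was 3.06 and 3.07 times its level in mouse 3. For *Smad7* these ratios were 1.75 and 1.97, for *Smad6* 1.60 and 2.07 and for *Id1* 1.32 and 1.39, while *Id2* was nearly level between mice 2 and 3 (1.01). *Tgfb2* was 0.994 and 1.10 times its level in mouse 3 and *Bmp7* 0.503 and 0.660 times, and the median ratios over all genes were 0.971 and 0.985. With 1 library per mouse and day, the differences between mice could not be tested.

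Genes with the most similar profiles were sought by the root mean square difference of centred log2 CPM over the 6 libraries, among 8067 named genes that averaged 10 CPM or more. *Tgfb2* was nearest to *Nbl1*, which encodes a secreted BMP antagonist (difference 0.227), and to *Clybl* (0.227). *Id3* was nearest to *Crabp2*, a retinoic acid-binding protein gene (0.146), and to *Tgfbi*, a TGF-beta-induced matrix gene (0.177). *Id2* was nearest to *Mxi1* (0.0318) and *Ecm1* (0.0844), *Id1* to *Casp6* (0.0732) and *Fbxo28* (0.0749), *Smad6* to *Arl5b* (0.0867) and *Zfp772* (0.0906), and *Smad7* to *Zfand3* (0.0688). *Bmp7* was nearest to *Pebp1* (0.0600) and *Dele1* (0.0675), and *Bmp2* to *Cep170* (0.190) and *Mospd3* (0.230). *Tgfb1* and *Bmp4* were below this level and were not compared.

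The other genes of the pathways were taken from 10 lists. Of their 122 genes, 90 were tested, of which 21 rose, 1 fell and 68 did not pass, with a median log2 fold change of 0.54. That is 24.4% called, against 12.0% of all genes tested (7.22% higher and 4.82% lower). Close to 12.0% were receptors and co-receptors (15.4%), intracellular regulators (14.3%) and other BMP targets (12.5%). Other BMP ligands and bHLH partners had 0. The share was 60% for secreted antagonists, 33.3% for TGF-beta targets, 25% for TGF-beta and related ligands, 21.4% for latency genes and 20% for SMADs. Only 5 of the 22 calls held in all 6 fits without 1 library: *Nbl1*, *Sostdc1*, *Tgfbi*, *Fn1* and *Acta2*.

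Of 3 other BMP ligands tested, 0 were called, and *Bmp3* and *Bmp8a* averaged 3.51 and 0.487 CPM at day 7. Among 8 other TGF-beta, activin and related ligands tested, *Inhbb*, an activin subunit gene, rose from 25.6 ± 1.27 to 45.4 ± 1.49 CPM (SD, n = 3; log2 fold change 0.82), and *Gdf15*, a stress-induced ligand gene, rose from 4.38 ± 2.06 to 10.7 ± 3.44 CPM (1.28). The *Inhbb* call was lost without any 1 of the day 5 libraries or day 7 mouse 2. The *Gdf15* call (edgeR adjusted p = 0.0480) held in 5 of 14 other settings and in 2 of 6 fits without 1 library, and was lost without day 5 mouse 2 or 3 (edgeR adjusted p = 0.175 and 0.246) or day 7 mouse 2 or 3 (0.0763 and 0.0918). *Inhba*, the other activin subunit gene, was 28.5 ± 3.92 and 29.2 ± 6.63 CPM and was not called. Of 13 receptors and co-receptors, 2 rose, the co-receptor *Tgfbr3* (log2 fold change 1.72) and the type I receptor *Acvrl1* (1.44), both below 10 CPM on average (edgeR adjusted p = 0.0334 and 0.0413). Neither receptor was called with DESeq2, limma voom with or without day weights, glmTreat or thinning, nor without any 1 of the day 5 libraries or without day 7 mouse 2, where *Tgfbr3* was at 1.00. *Acvrl1* was also lost without day 7 mouse 3 (edgeR adjusted p = 0.0602). The BMP receptors *Bmpr1a* and *Bmpr2*, at 127 ± 10.7 and 91.9 ± 12.9 CPM at day 5, had log2 fold changes of 0.17 and 0.03 and were not called. Of the 5 receptor-regulated and common SMADs tested, *Smad1*, which carries BMP signals, went up by 0.98 on the log2 scale, from 55.3 ± 9.83 to 109 ± 28.5 CPM (edgeR adjusted p = 0.00820), while *Smad3* and *Smad5* had log2 fold changes of 0.02 and 0.00.

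Of 10 secreted antagonists tested, 5 rose and 1 fell, with a median log2 fold change of 0.96, beside 12.0% called over all genes. The 6 calls became 3 with glmTreat, 3 without day 5 mouse 1, 2 or 3, and 2 without day 7 mouse 2. *Nbl1* rose from 22.5 ± 1.08 to 96.7 ± 19.6 CPM (SD, n = 3; log2 fold change 2.11, edgeR adjusted p = 7.68e-06). *Sostdc1*, which encodes an antagonist of BMP and Wnt ligands, rose from 122 ± 55.3 to 442 ± 173 CPM (1.86; edgeR adjusted p = 0.000669). The follistatin-like gene *Fstl1* also rose (2.70), from a level under 1 CPM, and *Grem1*, a BMP antagonist gene often expressed by mesenchyme, fell from 8.74 ± 3.86 to 2.15 ± 1.22 CPM (log2 fold change -2.01). The other risers were *Fstl3* (1.08) and *Crim1* (0.77), which are outside the naming rule and were chosen after their values were seen. *Fst*, which encodes the activin-binding follistatin, was 64.8 ± 13.0 and 110 ± 43.9 CPM and was not called (edgeR adjusted p = 0.0580). It was called with the mouse as a block (0.0269), and in 2 of 14 other settings in all. Its ratio of day 7 to day 5 was 1.14, 3.19 and 1.21 in mice 1, 2 and 3. The log2 fold change was as low as 0.38 when 1 library was left out.

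Of 14 genes of latency, processing and activation, 3 rose, all of them latent TGF-beta binding protein genes that tether the latent ligand to matrix: *Ltbp1* (log2 fold change 0.99), *Ltbp4* (0.93) and *Ltbp3* (0.67, edgeR adjusted p = 0.0484). The 3 calls on this list became 1 with library totals or DESeq2 and 0 with glmTreat. They became 1, 0 and 1 without day 5 mouse 1, 2 or 3, and 1 without day 7 mouse 2. *Thbs1*, an activator of latent TGF-beta, and *Furin*, a protease that cleaves its precursor, had log2 fold changes of 0.42 and 0.66 and were not called. Of 14 intracellular regulators, *Skil*, which encodes the SMAD corepressor SnoN, rose (0.85), and so did *Nedd4l*, a ubiquitin ligase gene (0.76). *Pmepa1*, a TGF-beta-induced inhibitor gene at 531 ± 14.8 CPM at day 5, and the corepressor gene *Ski* had log2 fold changes of 0.23 and -0.01 and were not called.

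Of 8 other BMP target genes tested, 1 rose, *Atoh8*, a bHLH factor gene with 0 counts at day 5 and 11 counts at day 7 over the 3 libraries, which is at least 3.50-fold higher against a floor of 3 counts over the group (at least 2.06-fold without day 7 mouse 2). In the fit blocked on mouse this call was lost (edgeR adjusted p = 0.106). Of these 8 genes only 1 averaged 10 CPM or more, *Id4*, whose log2 fold change was -0.51. Of 18 other TGF-beta target genes, 6 rose and 0 fell, with a median log2 fold change of 0.87. *Fn1*, encoding the matrix protein fibronectin, rose from 59.3 ± 12.7 to 204 ± 94.0 CPM (SD, n = 3; log2 fold change 1.78), and *Tgfbi* from 51.9 ± 8.54 to 131 ± 49.5 CPM (1.34). *Acta2*, encoding smooth muscle actin, which marks myoepithelial cells in this gland, had 0 counts at day 5 and 14, 24 and 2 counts at day 7 in mice 1, 2 and 3, at least 12.7-fold higher (at least 8.25-fold without day 7 mouse 2). *Skil* is on this list too. *Junb*, an immediate early gene, rose too (1.06), and it is outside the naming rule and was chosen after its values were seen. *Cdkn1a*, a cell cycle inhibitor gene, had a log2 fold change of 0.46 and was not called. At day 7 *Tgfbi* was 164, 154 and 73.9 CPM and *Junb* 297, 368 and 98.4 CPM in mice 1, 2 and 3, so mouse 3 was lowest for both. *Fn1* was 146, 312 and 153 CPM at day 7, lowest in mouse 1. *Dlx2*, a homeobox gene on the BMP list, was 12.3, 4.17 and 0 CPM at day 7 and was not called. Of 3 bHLH partner genes of ID proteins, 0 were called, and *Tcf4* and *Tcf12* had log2 fold changes of -0.36 and -0.14.

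**Figure D4:**
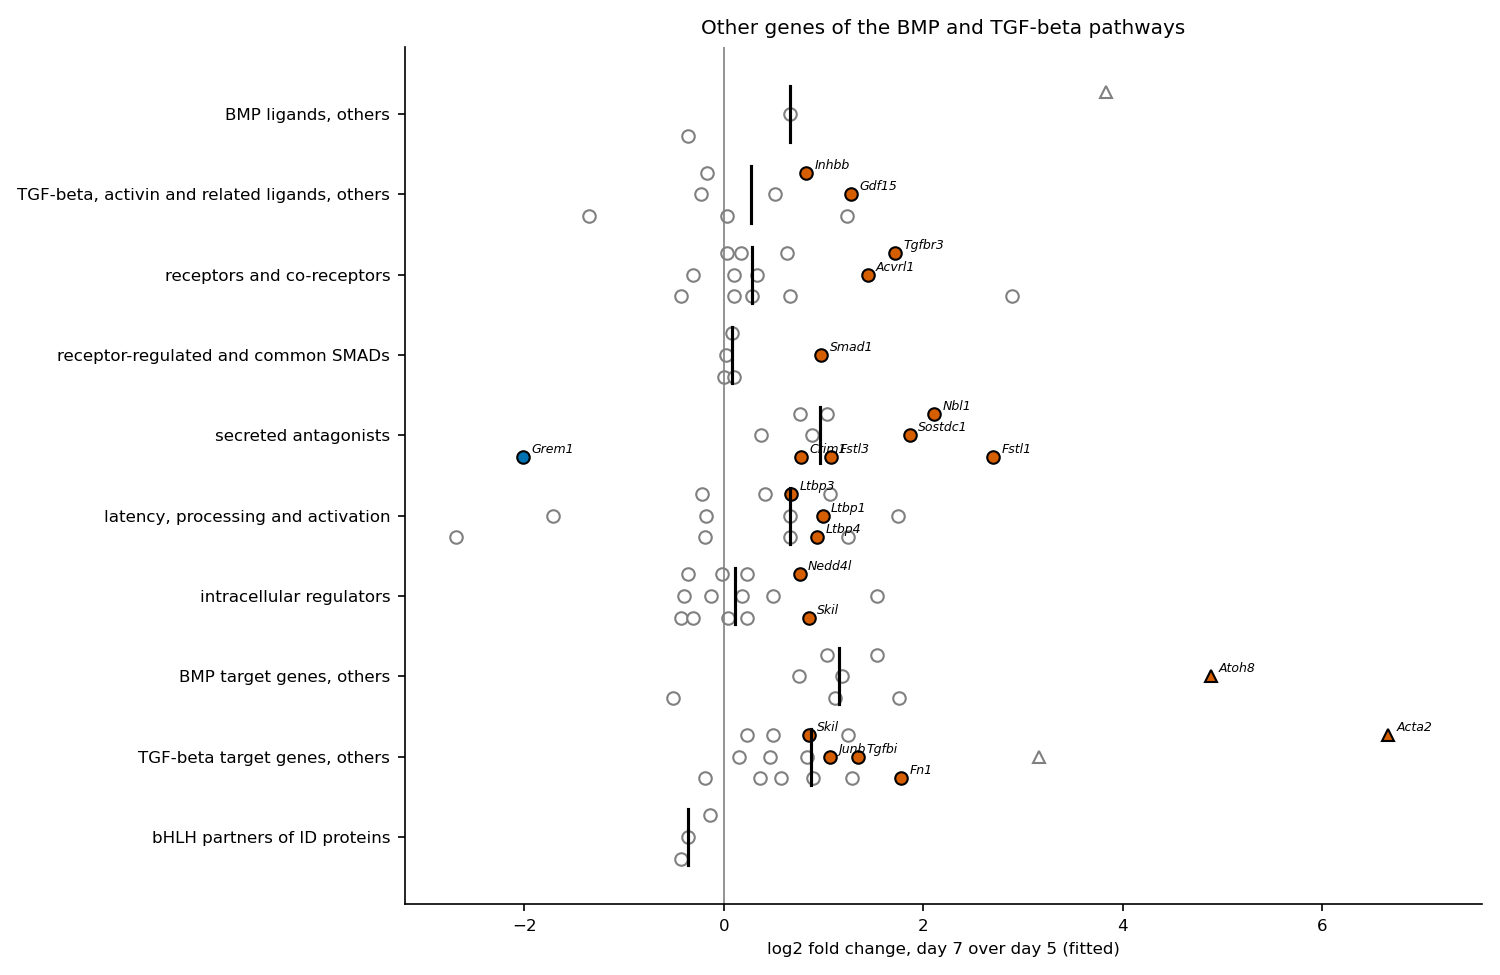
Fitted log2 fold change, day 7 over day 5, of tested genes in the 10 lists, with called genes filled and named and the median over all tested genes of the list as a black bar; triangles are genes with 0 counts at day 5, whose fitted value depends on the prior count. The antagonist row holds 5 filled points on the right and *Grem1* on the left, and the target rows lie mostly right of 0. Of the 8 BMP targets tested, only 1 averaged 10 CPM or more (*Id4*, at -0.51), against 13 of the 18 TGF-beta targets.

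In bulk libraries, fewer cells of a type and less RNA per cell cannot be told apart, so marker genes of 5 groups of cell types were summed beside these results. The study reports that mSGOs lacked acinar, macrophage and endothelial populations. It does describe pro-acinar cells in older mSGOs, and it treats AQP5 as a marker of both pro-acinar and acinar cells. It also describes stem/progenitor and cycling cells, and myoepithelial-like cells in older mSGOs. Markers of these last 3 types were not summed here. The 8 duct and basal epithelium markers were all detected and summed to 14385 to 18162 CPM at day 5 and 11561 to 16013 CPM at day 7, and among them *Krt19* rose (log2 fold change 1.78) and *Krt8* fell (-0.65). Acinar markers were sparse: 6 of 7 were in the files, and *Prol1* and *Dcpp1* were at 0. Their sum was 6.03 to 10.4 CPM at day 5 and 10.4 to 35.2 CPM at day 7, mostly from *Aqp5*. *Aqp5* averaged 7.53 CPM at day 5 and 14.9 CPM at day 7 and was not called (edgeR adjusted p = 0.123). *Pip* was called higher (log2 fold change 3.73) from a total of 3 and 46 counts. Its day 7 counts were 1, 24 and 21 in mice 1, 2 and 3. Fibroblast markers summed to 14.8 to 19.6 CPM and 24.5 to 26.8 CPM, mostly from *Fbln1*, with 0 of 6 tested markers called and *Col1a2*, *Col3a1*, *Lum*, *Dpt* and *Mfap5* (5 of 12) at 0 in every library. Endothelium markers summed to 12.2 to 14.1 CPM and 13.9 to 27.4 CPM, mostly from *Egfl7*, with *Cdh5* and *Tek* at 0. Of 12 macrophage markers, 10 were at 0, *Adgre1*, *Csf1r* and *Lyz2* among them, and the sum was 0.360 to 1.65 CPM and 3.45 to 6.85 CPM, nearly all of it from *Cd68*, which rose. The acinar, fibroblast, endothelium and macrophage sums had higher day 7 than day 5 means, as the 5 called genes did. Whether cells of these types were present or had a part in the results was not tested.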

How the data were processed

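RNA of 6 mSGO libraries (3 mice, day 5 and day 7) was sequenced with the Lexogen QuantSeq 3′ kit. The deposited values are whole-number counts per Ensembl gene ID, which the authors made on the mouse genome GRCm39 and did not normalise. The submitters' processing notes name edgeR, and the aligner, the annotation and the strand setting are not given in the sources used here. The 5 entries per file that name no gene (9.12% to 14.4% of reads) were left out. IDs were named by exact match to GENCODE vM39, which found 43465 of 47643 (91.2%).

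A gene needed 1 count or more in 2 libraries or more. Days were compared with the two-sided quasi-likelihood test of edgeR 4.0.16 (R 4.3.3, TMM scaling, day as the only term), after the edgeR analysis of the study. P-values were adjusted by Benjamini-Hochberg over the 15792 genes tested, and the thresholds were 0.05 for the adjusted p and 0.6 for the log2 fold change, in either direction. CPM were computed with TMM-scaled library sizes. Log2 CPM for profiles used a prior count of 2. The main fit was tested on simulated data with 200 changed genes. These data had the same spread for all genes and both days, so the test does not cover the larger spread at day 7.

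The 10 genes, the gene lists and the tests were chosen with earlier results of these data known. Besides the 10 genes, the text names from each list up to 4 called genes with the smallest p and up to 2 others with the highest mean CPM, and the 2 nearest profiles of each gene with a mean of at least 10 CPM. A few genes that the rule or the lists hold are not reported here. Marker sums name the genes at 0 and those that carry the sum.

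Same-numbered libraries come from the same mouse, per the labels. Over 8172 genes, the correlation of their deviations from the day mean was 0.14 for mouse 1, -0.10 for mouse 2 and 0.16 for mouse 3, as a description. No libraries of a day agreed within sampling noise (smallest chi-square per degree of freedom 1.99). Library totals in genes were 1918198 to 2837397, and intervals and floors cover counting error only, since reads carried no molecular identifiers. No gene overlapped an exon of the 10 genes on the same strand. The alternatives were other scalings and filters, the mouse as a block, DESeq2 1.42.0, limma 3.58.1 (voom, with and without day weights), the robust option, glmTreat, no minimum fold change, thinning to 1918198 counts and leaving out each library.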

Additional observations from a re-analysis of the deposited data

How the results depend on the processing

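*Tgfb2* stayed past the threshold under all 20 alternatives, and the other 4 calls each lost it under at least 1, as given above. Calls over all genes numbered 1901, 622 with glmTreat, which asks for more than the minimum fold change, and 797 to 2576 without 1 library (892, 797 and 890 without day 5 mouse 1, 2 and 3, and 1045 without day 7 mouse 2). For the 10 genes the count was 5, with 2 under glmTreat and 2 to 7 without 1 library. For the other pathway genes it was 22, with 6 under glmTreat and 6 to 26 without 1 library (8, 6 and 8 without day 5 mouse 1, 2 and 3, and 6 without day 7 mouse 2). The cause was not tested. With the replicate block (mouse), 2340 genes, 5 of the 10 genes and 23 pathway genes were called. The block changed no call among the 10 genes, lost *Atoh8* and gained *Fst* and *Itgav*.

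Some log2 fold changes that were not called changed sign, and the cause was not tested. For *Bmp2* it was -0.0080 with limma voom and -0.0037 with day weights. For *Inhba* it was -0.0096 with the upper quartile, -0.064 with library totals and -0.048 after thinning. For *Bmpr2* it was -0.0055 with the upper quartile and -0.061 with totals. For *Smad3* it was -0.017 with the upper quartile, -0.075 with totals, -0.00082 with the block, -0.0025 and -0.0021 with voom and its day weights, and -0.016 after thinning. For *Smad5* it was -0.0060 with DESeq2 size factors, -0.037 with the upper quartile, -0.092 with totals, -0.0016 with a mean count of at least 10, -0.0078 with the block, -0.0063 with DESeq2, -0.012 and -0.013 with voom and its day weights and -0.0027 after thinning. *Dlx2* was at -0.40 and -0.39 with voom and its day weights, and after thinning *Bmp8a* was at 0.081 and *Ski* at 0.049. Without 1 library the value ran from -0.61 to 0.46 for *Bmp2*, -0.21 to 1.10 for *Bmp4*, -0.026 to 0.48 for *Bmp7*, -0.82 to 0.31 for *Bmp8a*, -0.16 to 0.14 for *Inhba*, -0.080 to 0.10 for *Bmpr2*, -0.19 to 0.15 for *Smad3*, -0.13 to 0.10 for *Smad5*, -0.092 to 0.084 for *Ski* and -0.51 to 1.26 for *Dlx2*. At this depth 3 counts equal 1.04 to 1.51 CPM, which limits *Bmp4* and *Tgfb1* most.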
